A study of Mus musculus with 12 samples.

Results

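The 9 genes Slamf1, Procr, Esam, Cd48, Flt3, Cd34, Cd27, Kit and Ly6a encode the cell surface proteins by which stem cells and progenitors of mouse blood are told apart in flow cytometry. Their RNA was measured in LSK cells, the fraction that is negative for lineage markers and positive for Sca-1 and Kit. The genes were taken by name, and every probe that the scanner output assigns to one of them was used, which gave 14 of the 39429 probes (9 of 31131 gene names) on the array. Cd48 and Ly6a were higher in LSK cells of G-CSF-mobilized blood than in those of marrow, and Slamf1 was lower in AMD3100-mobilized blood. G-CSF and AMD3100 blood differed at most members: Slamf1, Procr, Esam, Cd48, Ly6a and 1 Cd34 probe were higher after G-CSF, and 2 of the 3 Flt3 probes were lower, in a comparison where 30.1% of all probes on the array that could be tested differed.

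All mice were DBA2/J males, and there were 4 groups with 3 arrays in each, 12 in all. One group was marrow of mice given PBS. The others were peripheral blood of mice given G-CSF, with 9 injections over 5 days, of mice given AMD3100 for 1 hour, and of mice given CWHM-823+tGro-b, for which the labels give no time. Red cells had been removed and Kit-positive cells enriched in each group before LSK cells were flow sorted. The labels give no age, no count of mice per array and no untreated blood, so treatment and tissue cannot be told apart in any comparison with marrow. They do not say that arrays came from separate mice, so p-values cover the spread of these samples alone, which may be technical. In bulk RNA of this kind, fewer cells of a type and less RNA per cell cannot be told apart.

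Long-term stem cells sit in the LSK fraction together with several kinds of multipotent progenitor, which have lost lasting self-renewal. By surface protein, stem cells are classically CD150 (Slamf1) positive, EPCR (Procr) and ESAM high, and negative or low for CD48, FLT3 and, in adult mouse marrow, CD34, while CD48 and FLT3 mark the progenitors. G-CSF is a growth factor that mobilizes these cells over days, AMD3100 blocks the chemokine receptor CXCR4 and acts within hours, and CWHM-823 (an inhibitor of the integrin VLA-4) with tGro-b (a CXCR2 agonist) is another rapid combination.

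The values rest on single 60-base probes, and 9 of the 14 are shown, those at which G-CSF and AMD3100 blood differed. Probe sequences are those of the scanner output, written 5′ to 3′ in lower case. Positions are those the scanner output gives in mm9, and no exon annotation of that build was used here, so exon, intron or UTR is not stated. The first 2 are printed whole and the others by their first 30 bases.

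Cd48 A_55_P2132549: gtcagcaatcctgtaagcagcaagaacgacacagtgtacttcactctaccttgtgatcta
Flt3 A_55_P2055242: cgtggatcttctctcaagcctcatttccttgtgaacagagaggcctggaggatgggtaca
Slamf1 A_52_P550173: ttttagagcctcttatgcttcaaacaacag
Procr A_51_P382152: ggcagacttactgtaggcattcaaaacatc
Esam A_55_P2125811: gttgtagcagggggataggaaagacatttt
Cd48 A_55_P2185605: cctgtgtgcccagtcctttacaaagatttc
Flt3 A_66_P116412: agatgctgtctgccattactccaaagtgac
Cd34 A_51_P204740: ccagagatgagaggattgggtgtattctct
Ly6a A_51_P265495: tatgagttatagaagctccaaggtgggagt

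The Cd48 probes lie at chr1:173629721-173629780 and chr1:173635201-173635260 on the plus strand, and the Slamf1 probe lies on the same strand at chr1:173730343-173730402. The Cd34 probes, also on the plus strand, are at chr1:196785280-196785339 (A_55_P2009225) and chr1:196787392-196787451 (A_51_P204740). Procr is probed at chr2:155580945-155581004, Kit at chr5:76052394-76052453 and Esam at chr9:37345795-37345854, all on the plus strand. The Flt3 probes are on the minus strand at chr5:148178496-148178555 (A_55_P2055242), chr5:148142576-148142635 (A_66_P116412) and chr5:148174133-148174192 (A_66_P126155). On the minus strand, the Cd27 probes are at chr6:125183076-125183135 (A_51_P229664) and chr6:125183200-125183259 (A_55_P2164428), and the Ly6a probe at chr15:74825553-74825612. Ly6a belongs to a family of related genes, and whether its probe also binds their RNA was not tested.

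Levels are given as log2 of the processed signal, scaled to the 75th percentile of the array, so 0 is the signal below which 75% of the array's probes lie. They compare arrays for 1 probe, not 1 gene with another. Of the 14 probes, 13 were well above background on all 12 arrays, and Slamf1 was above it on 9, on none of the 3 AMD3100 arrays. The 75th percentile of signal ran from 1146 to 2724 and was lowest on AMD3100 array 1, and 70.7% to 83.3% of probes were above background. The marrow array 3 stood apart in neutrophil genes: the summed level of 9 neutrophil markers, in multiples of the 75th percentile, was 33.7 there and at most 2.82 on the other marrow arrays. Each slide carried 1 array of every group, and arrays of 1 slide deviated together. Each adjusted p comes from limma over all 29497 probes tested, without the slide in the model unless a block is named.

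**Figure D1:**
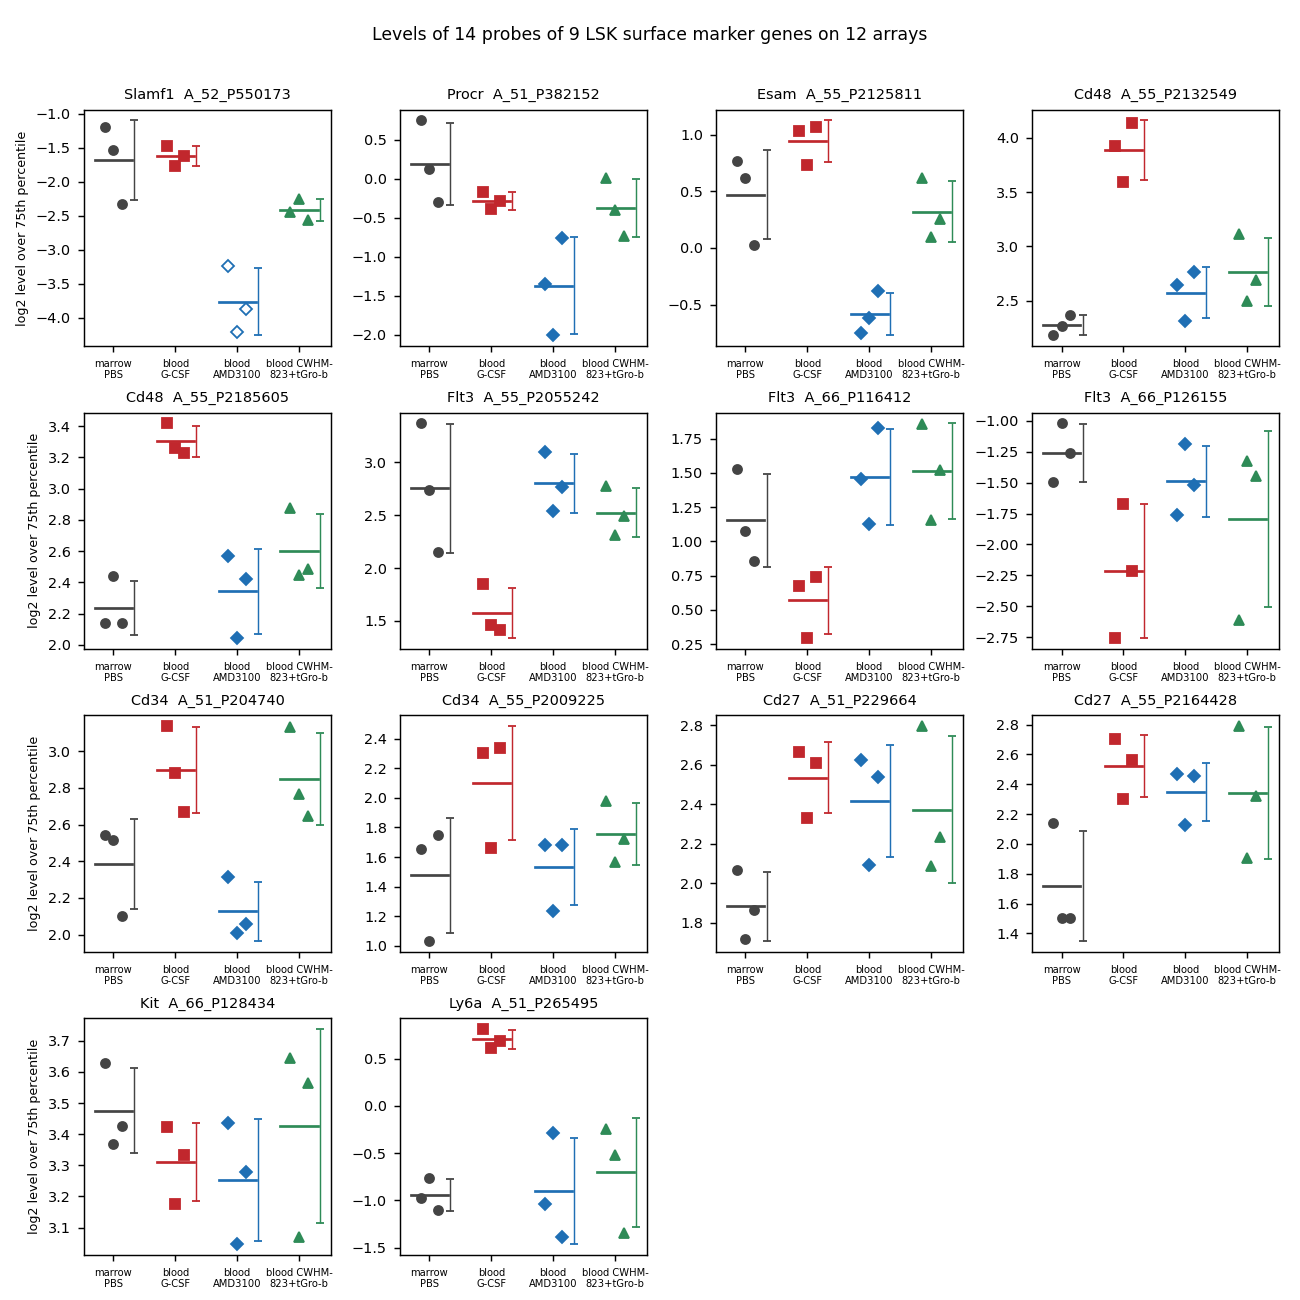
Log2 level over the array's 75th percentile (vertical axis, its own range in each panel) for the 14 probes in the 4 groups. Points are the 12 arrays, open where the probe was not well above background, lines are group means and bars 1 SD; the 3 G-CSF arrays are the highest for both Cd48 probes and Ly6a, and the 3 AMD3100 arrays the lowest for Slamf1 and Esam.

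Slamf1 encodes CD150, a SLAM family receptor used as the positive marker of long-term stem cells. Its log2 levels were -1.19, -1.53 and -2.32 in marrow, -1.47, -1.77 and -1.62 in G-CSF blood, -2.44, -2.25 and -2.56 in CWHM-823+tGro-b blood, and -3.23, -4.20 and -3.86 in AMD3100 blood. The AMD3100 arrays lay below all others, while marrow overlapped with both other blood groups. In log2 means ± SD (n = 3), the order was G-CSF at -1.62 ± 0.15, marrow at -1.68 ± 0.58, CWHM-823+tGro-b at -2.42 ± 0.16 and AMD3100 at -3.76 ± 0.49.

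Slamf1 was lower in AMD3100 blood than in marrow (log2 difference -2.09 ± 0.33 SE, adjusted p = 0.0111, lower on 3 of 3 slides). Since the probe was not well above background on any AMD3100 array, the fold is a bound, at least 3.79-fold lower with the main processing. For the bound, an AMD3100 array counts with its own value or with the dimmest detected probe on that array, whichever is brighter. The call was lost without marrow array 1 (adjusted p = 0.0557), without marrow array 2 (0.0569) and in a fit of these groups alone (0.0590). Without marrow array 3 the log2 difference was -2.41 (adjusted p = 0.00948). With normexp background correction it shrank to -1.18 and stayed past the threshold.

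Against G-CSF blood, Slamf1 was at least 3.95-fold lower in AMD3100 blood (log2 difference, G-CSF minus AMD3100, 2.15 ± 0.33 SE, adjusted p = 0.00446), and this passed in each of the 12 fits that left out 1 array. It also passed in the 8 other settings, where the log2 difference ran from 1.21 to 2.72. The bound therefore holds for the main processing only. G-CSF blood and marrow differed by 0.06 ± 0.33 (adjusted p = 0.916), which is within the spread of marrow itself. Without marrow array 3 that difference was -0.26 (adjusted p = 0.644). CWHM-823+tGro-b blood was 0.74 below marrow in log2 (SE 0.33, adjusted p = 0.808), with overlapping arrays. It was above AMD3100 blood by 1.35 ± 0.33, which passed only with the slide as a block (adjusted p 0.108 without it and 0.0243 with it; at least 2.27-fold).

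Procr encodes the endothelial protein C receptor, EPCR, which is high on stem cells. Its log2 levels were 0.75, 0.12 and -0.30 in marrow, -0.16, -0.39 and -0.29 in G-CSF blood, 0.01, -0.40 and -0.73 in CWHM-823+tGro-b blood, and -1.34, -2.01 and -0.76 in AMD3100 blood. The AMD3100 arrays were again below all others, by a narrow margin for AMD3100 array 3. Procr was 2.13-fold higher in G-CSF than in AMD3100 blood (log2 difference 1.09 ± 0.36 SE, adjusted p = 0.0399). This passed in 7 of 12 fits that left out 1 array, was lost without marrow array 2, G-CSF array 1 or 3, or AMD3100 array 1 or 2 (highest adjusted p = 0.145), and was lost in a fit of these groups alone (0.0629). Against marrow, AMD3100 blood was -1.56 ± 0.36 apart in log2 and just missed the threshold (adjusted p = 0.0507). With the slide as a block it passed (adjusted p = 0.0200), as it did with quantile normalization (0.0353), with normexp (0.0464) and in the authors' deposited table of normalized values, tested the same way (0.0410).

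Esam encodes an adhesion molecule of endothelium, platelets and stem cells. Its log2 levels were 0.76, 0.62 and 0.02 in marrow, 1.03, 0.73 and 1.06 in G-CSF blood, 0.62, 0.10 and 0.25 in CWHM-823+tGro-b blood, and -0.75, -0.62 and -0.38 in AMD3100 blood. The AMD3100 arrays were the lowest 3 of the 12, and G-CSF blood was the highest group but overlapped with marrow. Esam was 2.88-fold higher in G-CSF than in AMD3100 blood (log2 difference 1.53 ± 0.26 SE, adjusted p = 0.00602), with a call in all 12 fits that left out 1 array. AMD3100 blood was -1.05 ± 0.26 from marrow in log2 (adjusted p = 0.0677), which passed with the slide as a block (0.0233) and without marrow array 3 (0.0490). It also passed with quantile normalization (0.0369), in the authors' deposited values (0.0429) and with an intensity trend and robust prior in limma (0.0422). CWHM-823+tGro-b blood was 0.90 ± 0.26 above AMD3100 blood, passing with the block only (adjusted p 0.137 without it and 0.0361 with it). Of 9 endothelial markers, 6 were above background on every array of each group. Cdh5, the endothelial cadherin, was above it on 2 of the 12 arrays and on none of the AMD3100 or G-CSF arrays. The summed endothelial level ran from 7.91 to 8.64 on AMD3100 arrays, 7.14 to 7.90 on G-CSF arrays and 7.29 to 8.23 on marrow arrays. On the AMD3100 arrays its largest part was Mcam, whose probes did not match. A_55_P1986552 read 6.58 to 7.39 in log2 there and A_55_P1986551 read -3.07 to -2.35. The part of the endothelial sum in the Esam and Procr values was not tested.

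Promoter sequence from RefSeq (GRCm38.p6) was matched for 7 of the 9 members. The 250 bases before the start of Slamf1, at chr1:171766882-171767131 on the plus strand, are shown because Slamf1 was the 1 member that differed between AMD3100 blood and marrow; capitals mark a match to the E-box motif CANNTG.

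Slamf1: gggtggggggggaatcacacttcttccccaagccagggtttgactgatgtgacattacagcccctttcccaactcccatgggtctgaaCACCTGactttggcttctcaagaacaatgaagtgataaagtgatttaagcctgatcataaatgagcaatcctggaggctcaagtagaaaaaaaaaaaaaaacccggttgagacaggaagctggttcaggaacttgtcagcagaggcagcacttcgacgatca

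Motifs of blood cell factors were searched on both strands, with AGATAA for GATA factors, TGTGGT for RUNX factors, GGAAGT for ETS factors and CANNTG for E-box factors. Slamf1 held 1 E-box match and 0 of the others, and Procr likewise held 1 E-box match alone. Among 32851 windows of the same length, 66.2% held the E-box motif, 9.99% the GATA, 14.0% the RUNX and 19.7% the ETS motif. Cd48 held 1 RUNX and 1 E-box match, and Flt3 held 1 ETS and 1 E-box match. A match describes letters only, and the absence of one says no more than that these letters are not in this window.

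Cd48 encodes a SLAM family ligand that marks multipotent and restricted progenitors and is low on long-term stem cells. The probe A_55_P2132549 read 2.18, 2.27 and 2.37 in marrow, 3.92, 3.59 and 4.14 in G-CSF blood, 3.11, 2.50 and 2.69 in CWHM-823+tGro-b blood, and 2.64, 2.31 and 2.77 in AMD3100 blood. The G-CSF arrays were above all 9 others, and marrow was the lowest group, overlapping with AMD3100 blood alone. The probe A_55_P2185605 read 2.14, 2.44 and 2.14 in marrow, 3.42, 3.26 and 3.23 in G-CSF blood, 2.88, 2.45 and 2.48 in CWHM-823+tGro-b blood, and 2.57, 2.04 and 2.42 in AMD3100 blood, with the G-CSF arrays again the highest. The group order was the same for both probes, G-CSF, CWHM-823+tGro-b, AMD3100 and marrow.

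Against marrow, Cd48 was 3.05-fold higher in G-CSF blood at the first probe (log2 difference 1.61 ± 0.25 SE, adjusted p = 0.00613). The second probe gave 2.09-fold (1.06 ± 0.23, adjusted p = 0.0415). The first call held in all 12 fits that left out 1 array and in the 10 other settings (adjusted p up to 0.0397 and 0.0314). The second was fragile: among the 12 fits it held only without CWHM-823+tGro-b array 1 or AMD3100 array 2, and its adjusted p reached 0.163. It was also lost with quantile normalization (0.0770), in the authors' deposited values (0.0861), with no filter on dim probes (0.0579) and in a fit of these groups alone (0.102).

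Cd48 was also higher in G-CSF than in AMD3100 blood, 2.48-fold at A_55_P2132549 (adjusted p = 0.00837) and 1.94-fold at A_55_P2185605 (adjusted p = 0.0160, lost without G-CSF array 1 or AMD3100 array 2, at most 0.0656). Against CWHM-823+tGro-b blood the first probe was 1.12 ± 0.25 higher after G-CSF in log2, which missed the threshold (adjusted p = 0.0860) and passed with the slide as a block (0.0188). AMD3100 blood was 0.30 ± 0.25 and CWHM-823+tGro-b blood 0.49 ± 0.25 above marrow at this probe (adjusted p = 0.537 and 0.922). The summed level of 6 monocyte or macrophage markers ran from 11.7 to 12.3 on G-CSF arrays and from 7.31 to 9.39 on marrow arrays. It was 11.8 to 13.2 on AMD3100 and 8.37 to 9.50 on CWHM-823+tGro-b arrays. On the AMD3100 arrays its largest part was Itgam, through 1 probe, A_55_P1977934, at log2 levels of 6.68 to 7.30. The other Itgam probes read -0.14 to 1.44 there. The part of the monocyte or macrophage sum in the Cd48 values was not tested. Of the 6 genes, 2 were higher in G-CSF blood than in marrow, beside 1.28% of all probes. In AMD3100 blood 0 passed against marrow, beside 1.72% of all probes.

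**Figure D2:**
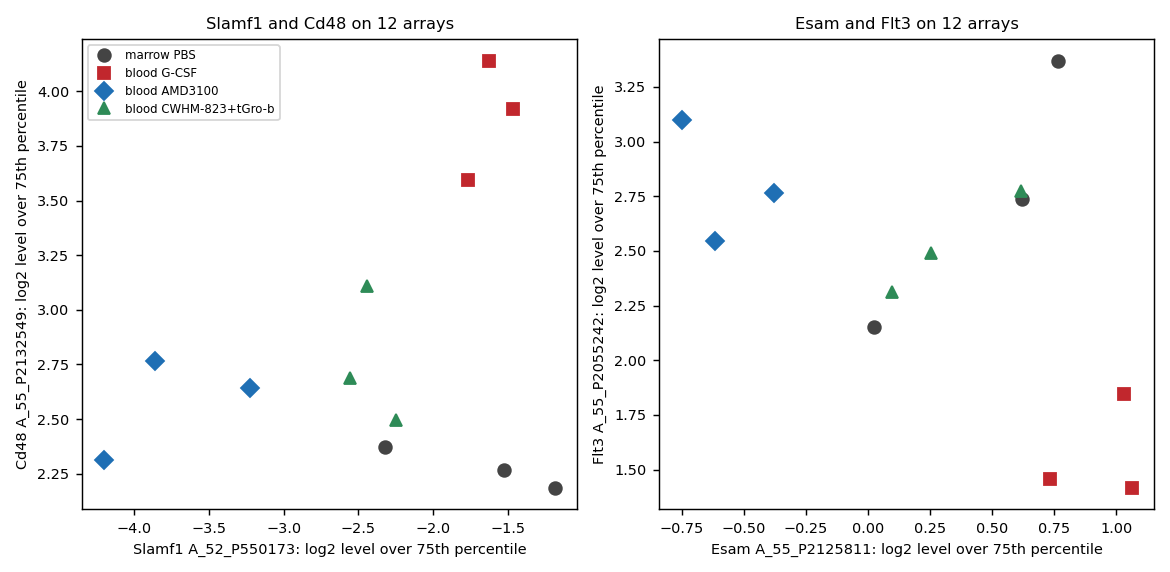
Levels on the 12 arrays, each axis the log2 level over the array's 75th percentile, for Slamf1 against Cd48 (left) and Esam against Flt3 (right), with 1 symbol per array. The G-CSF arrays are at 3.59 to 4.14 for Cd48, above the rest, with Slamf1 levels within the range of marrow; the AMD3100 arrays are lowest for Slamf1 and for Esam.

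Flt3 encodes the receptor tyrosine kinase that is gained by lymphoid-primed progenitors and absent from long-term stem cells. At A_55_P2055242 the log2 levels were 3.37, 2.74 and 2.15 in marrow, 1.85, 1.46 and 1.42 in G-CSF blood, 2.77, 2.31 and 2.49 in CWHM-823+tGro-b blood, and 3.10, 2.54 and 2.77 in AMD3100 blood. The G-CSF arrays were the lowest 3 of the 12, and the other groups overlapped. At A_66_P116412 the G-CSF arrays read 0.67, 0.29 and 0.74, below the range of 0.86 to 1.86 over the other groups. At A_66_P126155, whose accession is that of a cDNA clone, the G-CSF arrays read -2.76, -1.67 and -2.21, and CWHM-823+tGro-b array 1 at -2.61 and AMD3100 array 1 at -1.76 fell among them.

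In G-CSF against AMD3100 blood, Flt3 was 2.34-fold lower at A_55_P2055242 (log2 difference -1.23 ± 0.31 SE, adjusted p = 0.0187) and 1.87-fold lower at A_66_P116412 (-0.90 ± 0.29, adjusted p = 0.0367). The third probe gave -0.72 ± 0.37 (adjusted p = 0.140), which passed with the slide as a block (0.0164). The first call was lost without G-CSF array 3 or AMD3100 array 1 (at most 0.0632). The second was lost without marrow array 2 or any G-CSF or AMD3100 array (at most 0.0924), with normexp (0.0524) and in a fit of these groups alone (0.0655). Against marrow, the 3 probes were -1.18 ± 0.31, -0.58 ± 0.29 and -0.96 ± 0.37 apart in log2 (adjusted p = 0.0831, 0.277 and 0.201). With the slide as a block the first and the third passed (0.0116 and 0.0227) and the second did not (0.0771). Without marrow array 3 the first was -1.48 (adjusted p = 0.0449).

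The summed level of 6 dendritic cell markers, Flt3 left out, was 2.18 to 2.94 on the G-CSF arrays, against 6.78 to 12.9 in marrow, 8.31 to 12.0 in CWHM-823+tGro-b blood and 8.45 to 14.1 in AMD3100 blood, without overlap. Of 5 tested, 3 were lower in G-CSF blood than in marrow, 2 lower than in CWHM-823+tGro-b blood and 4 lower than in AMD3100 blood, where 0.529%, 0.658% (either direction) and 16.9% of all probes were called. The 3 that were lower than in marrow are genes of antigen presentation by MHC class II: Cd74, its invariant chain, was 4.91-fold lower (adjusted p = 0.0204), and the MHC genes H2-Aa and H2-Eb1 were lower too (adjusted p = 0.000661 and 0.0321), each above background on 2 of the 3 G-CSF arrays. Siglech and Zbtb46, which mark plasmacytoid and classical dendritic cells, did not pass against marrow. The sum of 8 B cell markers was 4.30 to 4.61 in G-CSF blood and 4.12 to 4.47 in marrow, below 6.42 to 8.07 in AMD3100 and 6.84 to 9.59 in CWHM-823+tGro-b blood. In G-CSF blood most of this sum was Cd79b, at log2 levels of 1.52 to 1.81 against 1.11 to 1.40 in marrow. The median log2 difference of the B cell probes between these groups was -0.73, and 0 of 7 tested genes passed. The part of such genes in the Flt3 values was not tested.

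Cd34 encodes a sialomucin of progenitors and endothelium. At A_51_P204740 the log2 levels were 2.54, 2.51 and 2.10 in marrow, 3.14, 2.88 and 2.67 in G-CSF blood, 3.13, 2.77 and 2.65 in CWHM-823+tGro-b blood, and 2.31, 2.01 and 2.06 in AMD3100 blood. The G-CSF and CWHM-823+tGro-b arrays overlapped with each other and lay above both other groups, which overlapped. At A_55_P2009225 the groups overlapped more, with means of 1.48 ± 0.39 (SD) in marrow, 2.10 ± 0.38 in G-CSF, 1.76 ± 0.21 in CWHM-823+tGro-b and 1.53 ± 0.26 in AMD3100 blood.

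The first Cd34 probe was 1.71-fold higher in G-CSF than in AMD3100 blood (log2 difference 0.77 ± 0.24 SE, adjusted p = 0.0349). It passed in 7 of the 12 fits that left out 1 array, and was lost without G-CSF array 1 or 3 or any AMD3100 array (at most 0.129). It was also lost with quantile normalization (0.0904), in the authors' deposited values (0.0892) and in a fit of these groups alone (0.0724). The second probe gave 0.57 ± 0.28 (adjusted p = 0.131), which passed with the slide as a block (0.0131). Against marrow, G-CSF blood was 0.51 ± 0.24 and 0.62 ± 0.28 higher in log2 (adjusted p = 0.265 and 0.252), and both probes passed with the block (0.0441 and 0.0311). CWHM-823+tGro-b blood was 0.72 ± 0.24 above AMD3100 blood at the first probe, passing with the block only (adjusted p 0.166 without it and 0.0254 with it).

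Cd27 encodes a receptor of the TNF receptor family that is carried by most LSK cells. Its levels at A_51_P229664 were 2.07, 1.72 and 1.86 in marrow, 2.67, 2.33 and 2.61 in G-CSF blood, 2.80, 2.09 and 2.23 in CWHM-823+tGro-b blood, and 2.62, 2.09 and 2.54 in AMD3100 blood. All 9 blood arrays were above the 3 marrow arrays, and the blood groups overlapped. At A_55_P2164428 the means were 1.72 ± 0.37 (SD) in marrow and 2.52 ± 0.21, 2.34 ± 0.44 and 2.35 ± 0.19 in G-CSF, CWHM-823+tGro-b and AMD3100 blood, with 1 marrow array inside the blood range. No Cd27 difference passed without the block. G-CSF blood was 0.65 ± 0.26 and 0.81 ± 0.28 above marrow in log2 (adjusted p = 0.204 and 0.168), and both passed with the slide as a block (0.0278 and 0.0209). In AMD3100 blood A_55_P2164428 was 0.63 ± 0.28 above marrow (adjusted p = 0.254, and 0.0428 with the block).

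Kit and Ly6a encode the proteins by which LSK cells are sorted, Kit being the receptor for stem cell factor and Ly6a encoding Sca-1, an anchored protein of the Ly6 family. Both were above background on all 12 arrays, as the gate requires of the proteins. Kit read 3.63, 3.37 and 3.43 in marrow, 3.42, 3.17 and 3.33 in G-CSF blood, 3.64, 3.07 and 3.57 in CWHM-823+tGro-b blood, and 3.44, 3.05 and 3.28 in AMD3100 blood. The groups overlapped throughout. Kit passed in none of the 7 comparisons, with or without the block, and its differences from marrow were -0.17 ± 0.23 (SE) in G-CSF, -0.22 ± 0.23 in AMD3100 and -0.05 ± 0.23 in CWHM-823+tGro-b blood.

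Ly6a read -0.97, -0.76 and -1.10 in marrow, 0.81, 0.61 and 0.69 in G-CSF blood, -0.25, -0.52 and -1.35 in CWHM-823+tGro-b blood, and -1.03, -0.28 and -1.38 in AMD3100 blood. The G-CSF arrays were above all 9 others, and the other 3 groups overlapped. Ly6a was 3.14-fold higher in G-CSF blood than in marrow (log2 difference 1.65 ± 0.34 SE, adjusted p = 0.0292). This was lost without any 1 marrow array or without G-CSF array 1 or 3 (adjusted p up to 0.120) and held in the 10 other settings (up to 0.0476). Ly6a was 3.04-fold higher in G-CSF than in AMD3100 blood (1.61 ± 0.34, adjusted p = 0.0104), with a call in all 12 fits that left out 1 array. Against CWHM-823+tGro-b blood it was 1.41 ± 0.34 higher, passing with the block only (adjusted p 0.118 without it and 0.0331 with it).

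**Figure D3:**
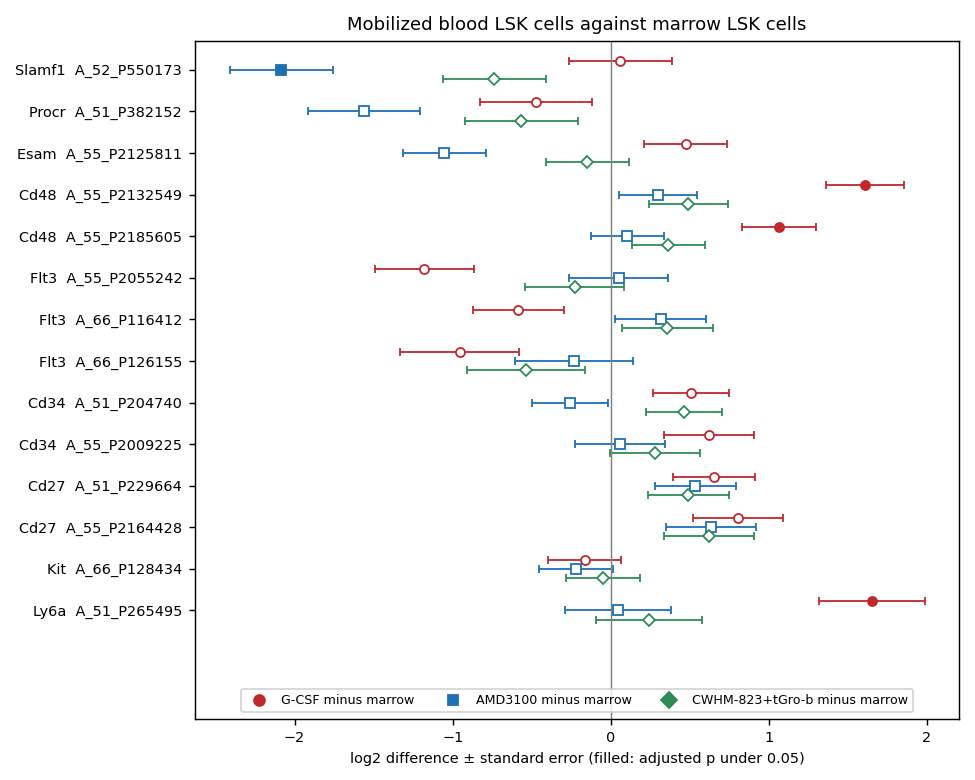
Log2 difference (horizontal axis) from marrow ± standard error for the 14 probes in the 3 blood groups, filled where the adjusted p is under 0.05. The filled points are the Cd48 probes and Ly6a for G-CSF, at 1.61, 1.06 and 1.65, and Slamf1 for AMD3100, at -2.09.

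Of the 9 genes, 5 had 1 probe, 3 had 2 and 1 had 3, and the probes of a gene are counted separately here. Counted over the 14 probes, 3 were higher and 0 lower in G-CSF blood than in marrow, against 1.28% higher and 0.529% lower (1.81% in either direction) of all 29497 probes. Median log2 differences were 0.49 over the members and -0.21 over all probes. With the slide as a block, 7 member probes were higher and 2 lower, beside 18.4% of all probes called. The 3 arrays of each group did not overlap for 9 of 14 member probes, where 25.5% of all probes were separated. Quantile normalization moved the median of all probes to -0.06 and the share of higher calls among all calls from 70.8% to 83.6%; with normexp it was 82.8% and in the authors' deposited values 85.3%.

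In AMD3100 blood against marrow, 0 member probes were higher and 1 (Slamf1) was lower, beside 0.559% higher and 1.16% lower (1.72% in all) of all probes. With the block 1 was higher and 3 were lower, where 13.6% of all probes were called. Groups were separated for 4 of 14 member probes and 26.3% of all probes, so that this share was near the background. Median log2 differences were 0.05 over the members and 0.07 over all probes.

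In CWHM-823+tGro-b blood against marrow, 0 of 14 member probes passed in limma, with or without the block, beside 0.39% of all probes without it and 1.07% with it. At an unadjusted p under 0.05 there were 2, Slamf1 and a Cd27 probe. Groups were separated for 4 of 14 member probes and for 10.1% of all probes, all 4 being higher in blood: both Cd48 probes and 1 each of Cd34 and Cd27.

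G-CSF against AMD3100 blood had the most calls, with 7 member probes higher and 2 lower after G-CSF, 64.3% of the 14. Of all probes 30.1% were called, 13.2% higher and 16.9% lower. With the block, 8 member probes were higher and 3 lower, beside 60.5% of all probes. Groups were separated for 9 of 14 member probes and for 46.7% of all probes. The median log2 difference was 0.67 over the members and -0.24 over all probes, and quantile normalization moved the latter to -0.00484. Higher calls were 44.0% of all calls, against 60.0% with quantile normalization and 58.9% in the authors' deposited values.

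**Figure D4:**
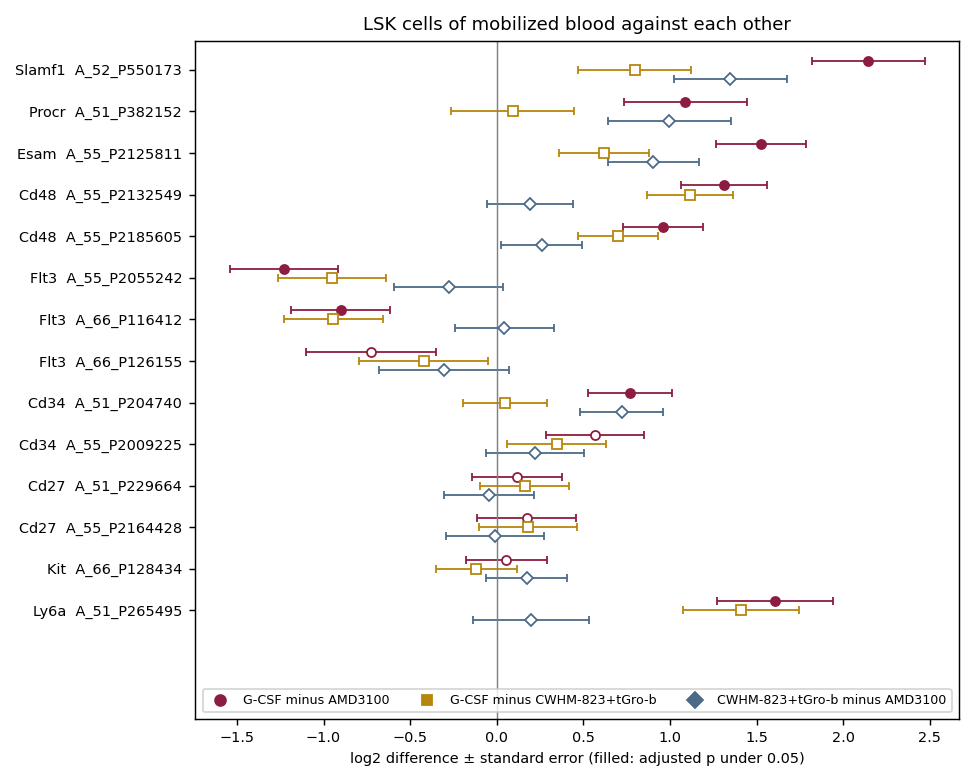
Log2 difference (horizontal axis) ± standard error between the blood groups for the 14 probes, filled where the adjusted p is under 0.05. In G-CSF minus AMD3100 the Slamf1 point is farthest to the right, at 2.15, and the Flt3 points lie left of 0, at -1.23, -0.90 and -0.72.

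Between G-CSF and CWHM-823+tGro-b blood, 0 of 14 member probes passed in limma, 7 had an unadjusted p under 0.05, and 2 passed with the block (Cd48 and Ly6a, both higher after G-CSF). Of all probes 0.658% were called without the block and 2.06% with it. Groups were separated for 7 member probes and 13.6% of all probes. Between CWHM-823+tGro-b and AMD3100 blood, 0 passed, 4 had an unadjusted p under 0.05 and 3 passed with the block (Slamf1, Esam and Cd34, all higher in CWHM-823+tGro-b blood). The background was 0.207% without and 16.2% with the block, and 24.1% of all probes were separated, as were 4 member probes.

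When the blood groups were averaged and set against marrow, 0 member probes passed in limma and 7 had an unadjusted p under 0.05. Cd48 at A_55_P2132549 (0.80 ± 0.20, adjusted p 0.115 without and 0.0257 with the block) and Cd27 at A_55_P2164428 (0.69 ± 0.23, 0.288 and 0.0368) passed with the slide as a block. Of all probes 0.915% were called without and 2.91% with the block. The other Cd27 probe was the single member probe whose blood and marrow arrays did not overlap, as for 2.22% of all probes. In the moderated F-test for any difference among the 4 groups, 5 of 14 passed against 7.39% of all probes: Slamf1 (adjusted p = 0.00891), both Cd48 probes (0.0137 and 0.0446), Esam (0.0252) and Ly6a (0.0300). With the block 13 passed, all but Kit, beside 48.1% of all probes.

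Further stem cell markers were compared as a list of 28 tested genes. In G-CSF blood against marrow, 2 were higher and 1 was lower (all probes 1.28% and 0.529%), with a median log2 difference over the list's probes of -0.41 beside -0.21 over all probes. The tetraspanin gene Cd9 was 4.13-fold higher (adjusted p = 0.00619) and Thy1, the gene of a surface glycoprotein, 2.15-fold higher (0.0414). Hlf, a transcription factor of stem cells, was 2.28-fold lower (0.0218). With the block 2 were higher and 9 lower, beside 18.4% of all probes called. In AMD3100 blood 3 were lower than in marrow and 0 higher (all probes 1.16% and 0.559%; median -0.32 beside 0.07), namely Hlf (2.48-fold), the transporter gene Abcg2 (4.54-fold) and the transcription factor gene Mecom (2.50-fold), with adjusted p = 0.0178, 0.0314 and 0.0318. With the block 10 were lower, beside 13.6% of all probes called. Between G-CSF and AMD3100 blood 7 were higher and 3 lower after G-CSF, 10 of the list's 36 tested probes, which is near the 30.1% of all probes. With the block 8 were higher and 7 lower, where 60.5% of all probes were called. Among the higher ones were Abcg2 (4.14-fold higher, adjusted p = 0.0107) and Cd81 (2.23-fold higher, 0.0125), a relative of Cd9. Abcg2 was above background on 1 of the 3 AMD3100 arrays. In CWHM-823+tGro-b blood against marrow 0 passed in limma with or without the block, and 3 had an unadjusted p under 0.05.

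Of 20 tested markers of multipotent progenitors and lymphoid priming, 5 were higher and 2 lower in G-CSF blood than in marrow, beside 1.28% higher and 0.529% lower of all probes. With the block 6 were higher and 5 lower, beside 18.4% of all probes called. The tetraspanin gene Cd53 was 5.05-fold and the granule protease gene Ctsg 5.02-fold higher, and the chemokine receptor gene Ccr9 was 3.12-fold lower (adjusted p = 0.00109, 0.00226 and 0.0123). In AMD3100 blood 2 were higher than in marrow, among them the lymphoid marker Ly6d (3.44-fold, adjusted p = 0.0487), and 0 were lower, beside 0.559% and 1.16% of all probes. With the block 8 were higher and 0 lower, beside 13.6% of all probes called, and the list's median was 0.63 beside 0.07 over all probes. Between G-CSF and AMD3100 blood 2 were higher and 9 lower after G-CSF (13.2% and 16.9% of all probes), and with the block 6 and 10, beside 60.5% of all probes. Among the lower ones were Ccr9 (5.86-fold), Dntt, the lymphoid terminal transferase gene (2.89-fold), Ly6d (5.04-fold) and Il7r, the interleukin 7 receptor gene, at least 6.46-fold lower, as no G-CSF array was above background. Their adjusted p were 0.00109, 0.00582, 0.00602 and 0.00356.

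Relatives of the members did not all move with them. Of 6 tested SLAM family receptors and adaptors beside Slamf1 and Cd48, 1 passed in any comparison without the block, Cd84. It was 2.47-fold lower in G-CSF than in AMD3100 blood (adjusted p = 0.0203). This was 1 of 8 probes tested, near the background, as 16.9% of all probes were lower there. Of 7 other Ly6 family genes, 0 passed between G-CSF blood and marrow in limma (1 at an unadjusted p under 0.05), where Ly6a was higher. Ly6d, Ly6i and Ly6f were lower in G-CSF than in AMD3100 blood (5.04-fold, 1.85-fold and 1.98-fold) and 0 were higher. These were 3 of 8 probes tested, beside 16.9% of all probes. Of 15 tested kinases, ligands and partners, Csf1, the gene of macrophage colony stimulating factor, was at least 22.3-fold higher in G-CSF blood than in marrow at A_51_P195506 (adjusted p = 0.000216), where it was above background on 2 of the 3 marrow arrays and the dim one was set to the dimmest level detected there. At this probe it was also higher in CWHM-823+tGro-b (at least 9.10-fold, 0.00345) and AMD3100 blood (at least 6.32-fold, 0.0101). Its other probes were not as far apart: in G-CSF blood against marrow A_55_P2169669 was at least 3.19-fold higher (0.0289) and A_55_P2017914 did not pass (3.22-fold, 0.111), and neither passed in the other blood groups. Its receptor gene Csf1r, a relative of Kit and Flt3, was 2.61-fold higher in G-CSF blood than in marrow at A_55_P2025078 (0.0310). Its other probes did not pass there. A_52_P602091 read -1.477 to -0.025 in marrow and 0.429 to 1.235 in G-CSF blood. The brightest probe, A_55_P2025073, was no higher, at 4.41 to 4.79 in marrow and 4.39 to 4.60 in G-CSF blood. Between G-CSF and AMD3100 blood 3 of these genes were higher and 2 lower after G-CSF, over 22 probes tested. Of all probes 13.2% were higher and 16.9% lower there. Csf1 at A_51_P195506 and Pdgfrb, another relative of Kit and Flt3, were 3.53-fold and 2.34-fold higher (0.0219 and 0.0222). Kitl and Proc, the genes of the ligands of Kit and of EPCR, were 2.61-fold and 2.77-fold lower (0.0301 and 0.0404).

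Of 9 tested genes that are relatives of Cd34 and Esam or other adhesion molecules, Selp, the gene of P-selectin, was 30.8-fold higher in G-CSF blood than in marrow (adjusted p = 5.46e-06) and 10.7-fold higher than in AMD3100 blood (0.000187). F11r, a junctional relative of Esam, was 2.43-fold higher in G-CSF than in AMD3100 blood (0.0467). The summed level of 7 megakaryocyte or platelet markers was 2.06 to 3.14 in G-CSF and 3.48 to 4.50 in marrow arrays, and its part in the Selp values was not tested.

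Markers of other cell types were summed in the same way to show what else the sorted cells carried. The 8 erythroid markers summed to 2.40 to 4.97 in marrow, 1.71 to 2.39 in AMD3100, 7.07 to 7.46 in G-CSF and 10.2 to 18.5 in CWHM-823+tGro-b blood. In G-CSF and CWHM-823+tGro-b blood most of this sum was Hba-a1, an alpha globin gene. Its log2 levels were 2.68 to 2.80 and 3.12 to 3.85 in these groups, against -1.39 to -0.05 in marrow. Hba-a1 was the 1 of 6 tested that was higher in G-CSF blood than in marrow (12.6-fold, adjusted p = 0.000166), beside 1.28% of all probes. Another 3 were lower there, beside 0.529% of all probes. They were Klf1, an erythroid transcription factor gene (4.72-fold, 0.0430), Car1, a carbonic anhydrase gene (6.93-fold at A_55_P2099952, 0.0165), and Rhag, a red cell membrane gene (at least 3.71-fold, 0.0108). The median log2 difference of the erythroid probes from marrow was -1.73 in G-CSF and -0.34 in CWHM-823+tGro-b blood. In the latter 1 of the 6 genes was higher and 0 were lower, beside 0.39% of all probes called. The 7 mast cell or basophil markers summed to 4.29 to 4.71 in marrow, and to 6.38 to 9.27 in G-CSF, 5.73 to 8.67 in CWHM-823+tGro-b and 4.26 to 13.0 in AMD3100 blood, with Ms4a2 above background on none. The 7 T cell markers summed to 2.00 to 3.58 in marrow, 1.30 to 2.98 in G-CSF, 1.99 to 3.17 in CWHM-823+tGro-b and 3.48 to 5.12 in AMD3100 blood. The 6 NK cell markers ran from 6.03 to 12.3 over all groups, which overlapped. Neutrophil markers in blood ran from 2.01 to 4.01. Over 7 genes of the lineage antigens and Ptprc, the pan-blood-cell gene, the sum was at least 10.7 in AMD3100 blood (median 11.4) and 7.30 to 8.87 over the other groups. Its largest part was Itgam, of which probe A_55_P1977934 read 6.68 to 7.30 in log2 in AMD3100 blood and 6.26 to 6.77 in marrow. The other Itgam probes were far dimmer. A_55_P1977926 read -0.14 to 0.36 in AMD3100 blood and -0.26 to 0.09 in marrow, and A_55_P1977929 read 0.37 to 1.44 and -0.11 to 0.16. The Itgam part of the sum thus rests on 1 probe that its sister probes do not match, and what it binds was not tested. Between these groups 0 of 5 tested lineage genes passed (median log2 difference of the probes 0.44), and 1 passed with the block. The part of these genes in the members' values was not tested.

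For the members that passed the F-test, the genes of nearest profile were found by the root mean square difference of log2 levels over the 12 arrays, each centred on its mean. Nearest to Slamf1 were Ccdc50 (0.248), Ikbip (0.252) and Phldb1 (0.307), where the median over all probes was 1.09. Nearest to Esam were Rnf114 (0.102), Ncoa5 (0.123) and Abca3 (0.124), beside a median of 0.819. For Cd48 they were Ptms (0.147), Chsy1 (0.160) and Casp4 (0.167) at A_55_P2132549, and Septin11 (0.120) and Ube2a (0.126) led at A_55_P2185605. Nearest to Ly6a were Col4a1 (0.237), Cd9 (0.261) and Plscr1 (0.288), beside a median of 0.966.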

How the data were processed

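RNA was amplified with WTA2 and labelled with Cy5, per the labels' protocols. The deposited intensity values (the processed signal of each spot) came from Agilent Feature Extraction 11.5.1.1, per the submitters' processing notes, and the authors also deposited normalized intensity for 30354 probes, by a method that is not given in the sources used here. Outlier and control spots were left out, spots of a probe were averaged as log2, and each array's 75th percentile was subtracted. A probe was tested if every array of some group had it well above background, which left 29497. They were fitted with 1 mean per group over all 12 arrays in limma 3.58.1 (R 4.3.3, 8 residual and 3.87 prior degrees of freedom), with two-sided moderated tests and Benjamini-Hochberg adjustment over all probes of each of 7 comparisons and an F-test. An adjusted p under 0.05 passed. Promoters were searched with pandas 2.3.3.

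Each slide held the same replicate number of every group. After group means were removed, the 18 same-slide pairs had r of 0.242 to 0.598 across probes, so the numbers pair the samples. The 36 other pairs between groups had a median of -0.235. Removing the mean of 3 arrays makes these negative when same-slide pairs are positive, so they add no separate evidence. Values with this block stand beside a result where it changes the call. The labels' treatment text names treatments that no sample has, and groups come from each sample's own label. Members and lists were chosen with earlier results of these data known. Named are all members, up to 4 list genes with the smallest p that passed per comparison, and the 3 genes of nearest profile; a few genes that this rule names are not reported here. Dendritic, erythroid, B cell and lineage marker genes were named after their values were seen. Marker lists for 12 cell types and gates were checked. The fitting procedure was tested on simulated data.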

Additional observations from a re-analysis of the deposited data

How the results depend on the processing

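No member that passed changed direction under any alternative run. Of member differences that had not passed, 6 changed sign with quantile normalization, 6 in the authors' table and 2 with normexp. With the slide as a replicate block, member probes passing were 9 in G-CSF against marrow, 4 in AMD3100 against marrow, 2 in G-CSF against CWHM-823+tGro-b, 3 in CWHM-823+tGro-b against AMD3100, 2 in mean blood against marrow and 13 in the F-test; with quantile normalization and the replicate block they were 6, 5, 2, 3, 1 and 10. AMD3100 against marrow had 3 with quantile normalization, 2 with normexp, 2 in the authors' table, 3 with an intensity trend and 0 with only the groups compared. G-CSF against CWHM-823+tGro-b had 1 with normexp and 1 with a trend, mean blood against marrow 1 with a trend, and the F-test 3 in the authors' table. Leaving out 1 array gave 1 to 3 in G-CSF against marrow, 0 to 2 in AMD3100 against marrow, 5 to 9 in G-CSF against AMD3100 and 1 to 5 in the F-test, with 0 in the other comparisons. Over all probes the block moved calls from 534 to 5428, 507 to 4007, 115 to 317, 8873 to 17849, 194 to 607, 61 to 4774, 270 to 857 and, in the F-test, 2180 to 14177 (comparisons in the order of the report). Leaving out 1 array gave 242 to 860 calls in G-CSF against marrow, up to 517 in AMD3100 against marrow (4.74 times fewer than with all arrays, 0.363% of probes, without marrow array 1), 66 to 108 in CWHM-823+tGro-b against marrow, 1847 to 12008 in G-CSF against AMD3100, 101 to 227 and 10 to 127 in the other pairs, 119 to 255 in mean blood and 500 to 3686 in the F-test. In CWHM-823+tGro-b against AMD3100, higher calls were 77.0% of all calls, 90.0% with normexp and 100% in the authors' table. The causes were not tested. Slamf1 in AMD3100 blood is limited by its signal being near background.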
